A study of Mus musculus with 12 samples.

Results

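The comparison of 4-hydroxytamoxifen (4-OHT) with vehicle in TFEB-ERT2 cells rests on 6 of the series' 12 RNA-seq libraries, 3 in each group, and on 13111 of the 23479 genes in the table. A gene entered when its normalized read count was at least 10 in at least 3 of the 12 libraries. All groups were the same cultured B cell lymphoma, kept with IL-7, from 1 C57BL/6 mouse with the transgenes Eµ-Myc and Eµ-rtTA. TFEB-ERT2 cells carried a puromycin-selected retrovirus with TFEB, mutated to alanine at a serine, joined to ERT2, the hormone-binding part of the estrogen receptor in a mutated form that answers to 4-OHT. Vector cells carried the puromycin marker alone, and both lines received vehicle or 4-OHT for 4 days. The dose is uncertain, since the protocols in the labels write 250 nM and the design text has that figure as ng/mL. A single lymphoma is 1 model of the disease, and the sources used here do not give the number of transduced clones. What the 3 replicates of a group were (cultures or repeats of 1 culture) is not stated either, and a p-value here measures no more than the spread among these libraries.

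TFEB belongs to the MiT family of transcription factors, which bind E-box sequences in the promoters of genes for lysosomes and autophagy. The kinase mTORC1, active when nutrients are plentiful, phosphorylates TFEB and holds it in the cytoplasm, and the mutated serine is one of its targets. A fusion with ERT2 is held inactive by chaperones until 4-OHT binds it, so that adding the ligand releases the factor. Early B lineage cells depend on IL-7, express the RAG recombinases and surrogate light chains, and shut these down as they mature. The comparison asks how expression differs once the fusion has been released.

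The 6 libraries held 11849029 to 19069056 reads, and all 12 held 11849029 to 22109283. A count of 0 allows up to 3 reads, worth 2.57 to 4.15 normalized counts in the 6 libraries (counting error only). Between 11390 and 19250 genes had reads in a library. The shallowest library of each of 3 groups (vector 4-OHT library 2, TFEB vehicle library 3 and TFEB 4-OHT library 2) was left out in a check. These were picked by the number of genes with reads or by principal component, and not by depth. Vector 4-OHT library 2 and TFEB 4-OHT library 2 had reads in 19057 and 19250 genes, more than any other library. TFEB vehicle library 3 did not stand apart by that number, with 15817 genes against 16471 in library 1 and 12089 in library 2. Results that change without the 3 shallowest libraries are given both ways. The B cell genes Cd79a and Pax5 were high throughout, with Cd79a at 8360.4, 6833 and 7444 in vehicle and 9223, 8469 and 8884 in 4-OHT, in the order of replicates 1 to 3 that is kept for all values here. Tfeb was at 1597, 1955 and 1476 in TFEB vehicle libraries, 702, 581 and 711 in 4-OHT, 252, 255 and 223 in vector vehicle and 231, 195 and 238 in vector 4-OHT. Both TFEB groups lay above both vector groups, as the labels say, and 4-OHT lowered the TFEB level 2.52-fold (log2 -1.33 ± 0.15 SE, adjusted p = 2.49e-08, limma). Which of these reads came from the virus and which from the cell's own gene is unknown.

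4-OHT changed 3611 genes in TFEB-ERT2 cells (27.5% of those tested, limma with Benjamini-Hochberg adjustment, threshold 0.05). Of these, 1792 were higher (13.7%) and 1819 lower (13.9%), so a list of genes is read against these shares. Without the 3 shallowest libraries 2623 genes passed, 1312 higher and 1311 lower. Changes of at least 2-fold were called in 558 genes upward (4.26%) and 491 downward (3.74%). The balance tipped at the top of the range, where 151 genes were at least 8-fold higher and 55 at least 8-fold lower. At 32-fold, 55 were higher and 5 lower. The call rate depended on level, from 2.33% higher and 1.74% lower among 3556 genes with a mean under 50 to 21.9% higher and 35.2% lower among 563 genes with a mean of at least 5000. In vector cells 4-OHT gave 2 calls (0.0153%) in limma, 0 in edgeR and 48 in DESeq2, with 822 genes at an unadjusted p under 0.05 in limma. The limma count was 55 without vector 4-OHT library 2, 25 without vector vehicle library 1, and 0 without any 1 of 6 other libraries. The effect of 4-OHT differed between the lines in 2066 genes (15.8%, interaction term of the same fit). A fold given for a named gene is the ratio of the 2 group means, and a log2 value comes from the fit to log2(value + 1). Counts of genes at least 2-, 8- or 32-fold higher or lower use the fitted log2 value instead. For genes low in vehicle the 2 can differ: Plau counted as 32-fold higher by its log2 of 5.67, with a ratio of means of 17.7.

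**Figure D1:**
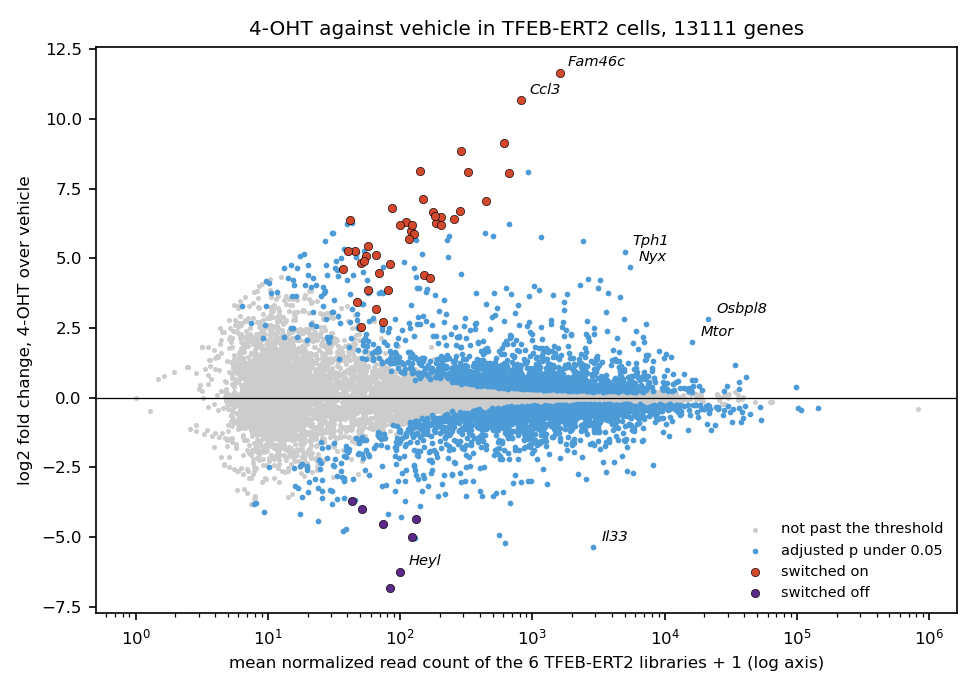
Log2 fold change of 4-OHT over vehicle in TFEB-ERT2 cells against the mean normalized read count of the 6 libraries (log axis), 1 point per tested gene. Blue points are past the threshold, red and violet points are the 42 genes switched on and the 7 switched off. The cloud of rises reaches further from 0 than that of falls.

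Switching on was defined as a call upward with every vehicle library under 20 normalized counts and every 4-OHT library at 60 or more. By that definition 42 genes (0.320%) were switched on and 7 (0.0534%) switched off. In 4-OHT the 42 had mean levels from 68.3 to 3220 with a median of 231. In all 6 vector libraries 24 of them were under 20 and 37 under 60. Of the 42, 26 passed the filter on low values only through their 4-OHT libraries, so their count says nothing about the remaining low genes. Without the 3 shallowest libraries, and so with fewer libraries that had to meet the limits, 65 genes were switched on and 12 off. Without TFEB 4-OHT library 2 alone 13 were switched off. The 4-OHT effect differed from that in vector cells for 29 of the 42 and for the 7 genes switched off (limma, interaction). Among all tested genes it differed for 15.8%. Both sets were chosen on the 4-OHT effect in TFEB-ERT2 cells, which is part of this difference, so the counts are read as a description.

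Fam46c (chr3:100468057-100489192, mm10), a poly(A) polymerase that lengthens immunoglobulin and other secretory mRNAs in plasma cells, reached the highest level of any gene switched on. It was at 0 in all 3 vehicle libraries and at 3101, 3146 and 3414 in 4-OHT, at least 777-fold higher against the floor of 3 reads per library (log2 11.65 ± 0.94 SE, adjusted p = 1.68e-11, limma). The vector libraries ranged from 0 to 9.66.

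Secreted proteins formed a first group. Ccl3 (chr11:83647843-83649378), a chemokine for macrophages and T cells, was at 0 in all vehicle libraries and at 1494, 1666 and 1774 in 4-OHT, at least 397-fold higher (log2 10.68 ± 1.10 SE, adjusted p = 3.24e-09, limma). Its neighbour Ccl4 was at 0 and at 274, 266 and 296, at least 67.2-fold higher (log2 8.13 ± 1.32 SE, adjusted p = 1.19e-05, limma). The 2 annotated genes overlap by 754 bases, and the strand setting of the counting is unknown, so their division is uncertain. Angptl2 (chr2:33215951-33247725), a secreted angiopoietin-like protein, went from 0, 0 and 9.68 to 1228, 1137 and 1309.7 (log2 9.12 ± 1.09 SE, adjusted p = 6.62e-08, limma). It lies within the span of Ralgps1, which was at 175 in vehicle and 217 in 4-OHT (adjusted p = 0.38, limma). Spp1 (chr5:104435111-104441053), the matrix cytokine osteopontin, went from 12.9, 2.13 and 5.53 to 801, 928 and 918 (log2 7.07 ± 1.01 SE, adjusted p = 1.51e-06, limma). In each of these 4 genes the groups were far apart, with the lowest 4-OHT library above the highest vehicle library.

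Receptors of immune cells formed a second group. Lilrb4 (chr10:51490898-51496613) and Gp49a (chr10:51480612-51486329), adjacent genes for paired immunoglobulin-like receptors, stood at 1103, 1110.1 and 1747 and at 591, 429.8 and 709 in 4-OHT. In vehicle they were at 5.998, 0 and 15.2 and at 0.857, 0 and 0. The 2 are closely related copies, so the split of reads between them is uncertain. In the vector libraries Lilrb4 was at 0 to 2.37 and Gp49a at 0 to 2.36. Cd28 (chr1:60746388-60773359), a costimulatory receptor of T cells, went from 4.28, 0 and 16.6 to 434, 392 and 378 (log2 6.47 ± 1.21 SE, adjusted p = 9.14e-05, limma). Its next tested gene Ctla4, from the same family, was at 35.99, 36.3 and 26.3 and 55.96, 55.5 and 54.3, and this did not pass (adjusted p = 0.69, limma).

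The checkpoint receptor Pdcd1 and one of its ligands, Pdcd1lg2, were both switched on. Pdcd1 went from 1.71, 0 and 6.91 to 239.97, 188 and 222 (log2 6.29 ± 1.15 SE, adjusted p = 7.08e-05, limma), and Pdcd1lg2 from 3.43, 0 and 6.91 to 221, 263 and 241 (log2 6.21 ± 1.28 SE, adjusted p = 0.000307, limma). Both changes differed from those in vector cells (interaction adjusted p = 0.00825 and 0.0292, limma). Tyro3 (chr2:119797740-119818104), a receptor tyrosine kinase that binds the apoptotic cell bridging ligand Gas6, went from 19.7, 17.1 and 9.68 to 245, 410.5 and 301 (log2 4.30 ± 0.56 SE, adjusted p = 3.57e-07, limma).

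Enzymes and signalling proteins came next. Plk2 (chr13:110395044-110400844), a stress-responsive Polo-like kinase, rose from 10.3, 17.1 and 0 to 533, 506 and 467, and was at 26.5, 56.7 and 75.8 in vector vehicle libraries, above the TFEB vehicle ones. Hpgds (chr6:65117293-65144981), a prostaglandin D synthase, went from 6.85, 0 and 17.97 to 540.2, 480.2 and 638. Pde8b (chr13:95024105-95250401), a cAMP phosphodiesterase, went from 7.71, 0 and 16.6 to 341, 379 and 471. Kynu (chr2:43555258-43683048), kynureninase of tryptophan breakdown, went from 0, 4.27 and 11.1 to 342, 345 and 395. All 4 had adjusted p-values in limma of 7.79e-05 or less, and for Pde8b the difference from vector cells did not pass (interaction log2 3.41 ± 1.62 SE, adjusted p = 0.176, limma).

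Card14 (chr11:119307093-119345379), a scaffold through which MALT1 is engaged to activate NF-κB, went from 7.71, 0 and 11.1 to 443, 328 and 322 (log2 6.26 ± 1.14 SE, adjusted p = 6.74e-05, limma). Its difference from vector cells did not pass (interaction log2 4.15 ± 1.62 SE, adjusted p = 0.0826, limma). It overlaps the sulfatase gene Sgsh by 1890 bases. Sgsh was itself switched on, from 18.9, 19.2 and 17.97 to 111, 126 and 148, and the anion transporter gene Slc26a11 beside it went from 8.57, 0 and 0 to 149.6, 41.3 and 77.6. The split of reads among these 3 neighbours is uncertain, since the strand setting is unknown.

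Trpm1 (chr7:64153835-64269772), a cation channel of pigment cells and of ON bipolar cells of the retina, went from 0, 0 and 12.4 to 638, 675 and 636 (log2 8.10 ± 1.27 SE, adjusted p = 7.35e-06, limma). Mir211, annotated inside Trpm1, was at 0 in all 9 other libraries and at 30.1, 42.6 and 27.2 in 4-OHT. These reads can be of the host transcript and do not measure the mature miRNA. Nyx (chrX:13461090-13492820), whose product nyctalopin works with TRPM1 at the retinal synapse, was already expressed in vehicle and rose 25.4-fold, from 514, 331 and 408 to 12298, 9024 and 10539.5 (log2 4.68 ± 0.14 SE, adjusted p = 7.74e-22, limma). Tph1 (chr7:46644641-46672537), the first enzyme of serotonin synthesis, rose 36.4-fold, from 367, 254 and 178 to 10471, 9797 and 8791 (log2 5.24 ± 0.21 SE, adjusted p = 1.27e-18, limma). Neither was near 0 in vehicle, and in vector cells Nyx was at 546 to 761 and Tph1 at 114 to 258.

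**Figure D2:**
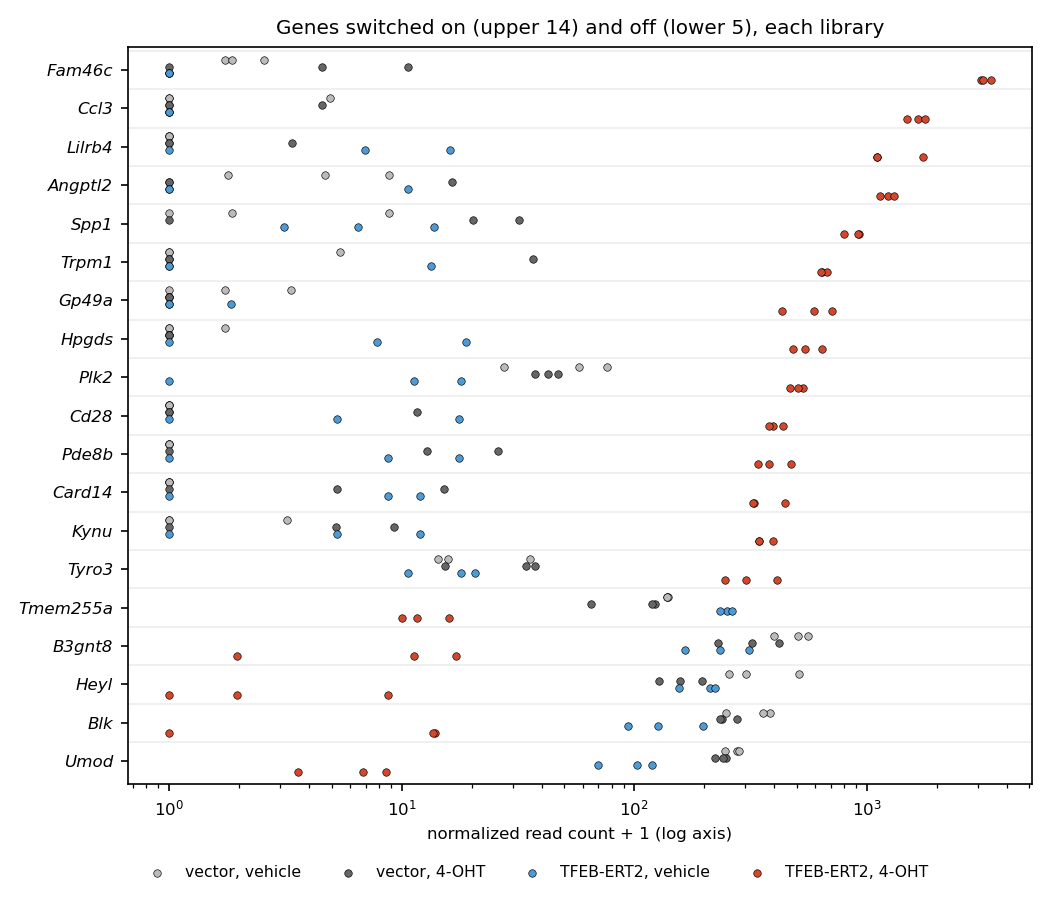
Normalized read count plus 1 (log axis) in each of the 12 libraries for the 14 named genes switched on and the 5 switched off. Each point is 1 library, coloured by group. The 3 red points of TFEB-ERT2 cells in 4-OHT stand apart on the right for the upper 14 genes and on the left for the lower 5.

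Among the 7 genes switched off, 5 are not predicted genes. Heyl (chr4:123233556-123249870), a transcriptional repressor induced by Notch, was at 209.9, 155 and 223 in vehicle and at 0, 7.74 and 0.97 after 4-OHT (log2 -6.23 ± 0.53 SE, adjusted p = 4.86e-11, limma). Blk (chr14:63372837-63417187), a Src family kinase of the B cell receptor, went from 93.4, 126 and 196 to 0, 12.9 and 12.6 (log2 -4.54 ± 0.59 SE, adjusted p = 2.93e-07, limma). B3gnt8 (chr7:25627600-25629492), which extends polylactosamine chains, went from 312, 164 and 232 to 16.1, 10.3 and 0.97. In all 3 the vehicle libraries lay well above the 4-OHT ones. Tmem255a (chrX:38196573-38252496), a membrane protein gene, went from 249, 234 and 261 to 15.1, 9.04 and 10.7, and Umod (chr7:119462708-119479262), the gene of the kidney protein uromodulin, from 118, 101 and 69.1 to 7.53, 2.58 and 5.82. The vector libraries kept all 5 on, with Blk at 232 to 382 and Umod at 222 to 283.

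Near the limits of the definition, 12 genes missed the switched-on set by the low limit and 10 by the high limit, and 3 and 4 genes missed the switched-off set. These are genes with the highest library of the low group between 20 and 25, or the lowest library of the high group between 50 and 60. Just inside were Tyro3, whose highest vehicle library was at 19.7, and Kcnip3, whose lowest 4-OHT library was at 62.0. Just outside were the metalloprotease gene Adamts14, with a vehicle library at 20.6 and a lowest 4-OHT library at 244, and Baiap2l1, with a lowest 4-OHT library at 59.2. For genes switched off, Umod was just inside with a vehicle library at 69.1, and Plxdc1 just outside with a 4-OHT library at 21.5.

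Markers of other cell types were counted beside these immune genes. Of 33 myeloid markers found, 11 were tested, 3 rose and 1 fell, and their summed level was 298 to 487 in vehicle and 424 to 785 in 4-OHT. The Fc receptor chain Fcer1g went from 0 in all vehicle libraries to 69.9, 58.1 and 28.1, and the adaptor Tyrobp from 3.43, 3.201 and 12.4 to 40.9, 63.2 and 53.4, whereas the mannose receptor Mrc1 fell 4.22-fold. The call of Tyrobp was lost with no filter (adjusted p = 0.0573, limma) and in edgeR (adjusted p = 0.0712). The macrophage marker Cd68 was the remaining rise, and its call was lost without the 3 shallowest libraries (adjusted p up to 0.091, limma). Other macrophage genes stayed low: Csf1r was at 16.3, 0 and 20.7 and 37.7, 25.8 and 24.3, Lyz2 at 5.998, 0 and 0 and 0, 5.16 and 0, and Cd14 at 0 in 4 of the 6 libraries.

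Of 28 T and NK cell markers found, 15 were tested, 5 rose and 0 fell. Their summed level was 1902 to 2111 in vehicle and 3212 to 3342 in 4-OHT. Besides Cd28, the adaptor Lat went from 225 ± 51.9 to 537 ± 29.3 (mean ± SD, n = 3, as for all ± values between means here) and perforin, Prf1, from 22.5 ± 12.6 to 122 ± 54.99. Cd247, a chain of the T cell receptor, and the surface receptor Cd2 rose as well. The call of Cd247 held in every alternative, and that of Cd2 was lost without the 3 shallowest libraries (adjusted p up to 0.0667, limma). Another T cell receptor chain, Cd3e, was at 2.57, 9.604 and 2.76 and 15.1, 10.3 and 2.91, Cd3d at 6.85, 1.07 and 0 and 0, 24.5 and 0, and Cd4 at 13.7, 0 and 0 and 0, 0 and 0.97.

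Of 20 mast cell and basophil markers, 4 were tested and Hpgds alone rose. Their summed level was 41.6 to 206 in vehicle and 649.97 to 749.9 in 4-OHT, where Hpgds gave most of it. The protease gene Mcpt4 was at 0 in all 6 libraries, and the receptor gene Kit was at 14.6 or less. No erythroid or platelet marker (3 tested, 6 of 18 at 0 in all 6 libraries) and no stromal or endothelial marker (11 tested) passed. The smallest p-values there belonged to Itga2b (adjusted p = 0.419, limma) and Pecam1 (adjusted p = 0.161, limma, and 0.0199 with array weights). Whether other cells took part in the rises of these genes was not tested. In bulk libraries fewer cells of a type and less RNA per cell cannot be told apart.

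The largest shifts in normalized read count came from abundant genes. These counts are not corrected for transcript length, so they do not rank genes by number of transcripts. Osbpl8 (chr10:111164742-111297249), which exchanges phosphatidylserine for a phosphoinositide where endoplasmic reticulum meets plasma membrane, rose 7.08-fold, from 5144, 5874 and 4779 to 36565, 37181 and 38054 (log2 2.83 ± 0.08 SE, adjusted p = 7.74e-22, limma). Mtor (chr4:148448582-148557685), the kinase of mTORC1, rose 3.96-fold from 6777, 6271 and 6457 to 26203, 25000.1 and 25962 and was at 12671, 11846 and 12806 in vector vehicle libraries, so 4-OHT took it from below the vector level to above it. Wdr26 (chr1:181173226-181220921), a subunit of a ubiquitin ligase, rose 2.76-fold from 5913, 6140.3 and 5735 to 16280.5, 15833 and 17005. The nuclear RNA Neat1 (chr19:5824708-5845480), which scaffolds paraspeckles, rose 6.26-fold from 2013, 2174 and 1799.8 to 13022, 10902 and 13559. In these 4 genes the 3 libraries in 4-OHT lay far above the 9 others.

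Smaller relative rises of very abundant genes followed. The RNA helicase gene Ddx3x rose 2.26-fold from 20870.5 ± 1128 to 47086 ± 1400.5, the MHC class I light chain B2m 1.67-fold from 30799 ± 2758 to 51318 ± 1158 (its span overlaps that of Patl2, at 2.57, 0 and 0 and 31.2, 33.6 and 19.4), and Smarca4, the ATPase of SWI/SNF complexes, 1.48-fold from 29711 ± 2450.2 to 43843 ± 1854. Malat1, a nuclear RNA next to Neat1, rose 1.32-fold from 84904 ± 7592 to 112028 ± 12241 (adjusted p = 0.0103, limma). That call was lost with no variance trend, without the 3 shallowest libraries and without TFEB 4-OHT library 1 (0.0662), TFEB 4-OHT library 3 (0.0809) or TFEB vehicle library 2 (0.0539), over a range of adjusted p from 0.000899 to 0.0809. Its difference from vector cells did not pass (interaction log2 0.42 ± 0.17 SE, adjusted p = 0.0917, limma). The 8 rises together made 10.6% of the summed rise of all genes called higher.

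The largest falls in normalized read count included genes of translation and glycolysis. The elongation factor Eef2 fell 1.36-fold from 124734 ± 4190.4 to 91528 ± 5902, the glycolytic enzymes Pkm 1.83-fold from 48721 ± 839 to 26592 ± 4686, Gapdh 1.67-fold from 48950.2 ± 2905 to 29280.4 ± 1728 and Ldha 1.804-fold from 41245 ± 621 to 22868 ± 2149. Ucp2, a carrier of the inner mitochondrial membrane, fell 1.74-fold from 67668 ± 1795 to 38852 ± 788, and the nucleolar chaperone Npm1 1.51-fold from 53429 ± 5876 to 35336 ± 711. The call of Eef2 was lost without the 3 shallowest libraries (adjusted p = 0.0891, limma), and its difference from vector cells did not pass (interaction log2 -0.20 ± 0.16 SE, adjusted p = 0.507, limma). For Ldha that difference passed (interaction log2 -0.71 ± 0.13 SE, adjusted p = 0.000186, limma).

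The falls of Eef1a1 and Pabpc1, a translation factor and the cytoplasmic poly(A)-binding protein, were less secure. Eef1a1 went from 163756 ± 25058 to 127530.0 ± 6139 and Pabpc1 from 114521 ± 8717 to 89216 ± 1123, with adjusted p-values of 0.0447 and 0.0162 in limma. Each call was lost without any 1 of the 3 TFEB 4-OHT libraries, without TFEB vehicle library 2 and with no filter, and Eef1a1 also without vector 4-OHT library 1 or 2. The adjusted p ranged from 0.000933 to 0.228 for Eef1a1 and from 0.000142 to 0.182 for Pabpc1. The difference from vector cells did not pass for Eef1a1 (interaction log2 -0.13 ± 0.19 SE, adjusted p = 0.765, limma) or for Pabpc1 (interaction log2 -0.35 ± 0.16 SE, adjusted p = 0.16, limma). The 8 falls made 11.1% of the summed fall of all genes called lower.

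**Figure D3:**
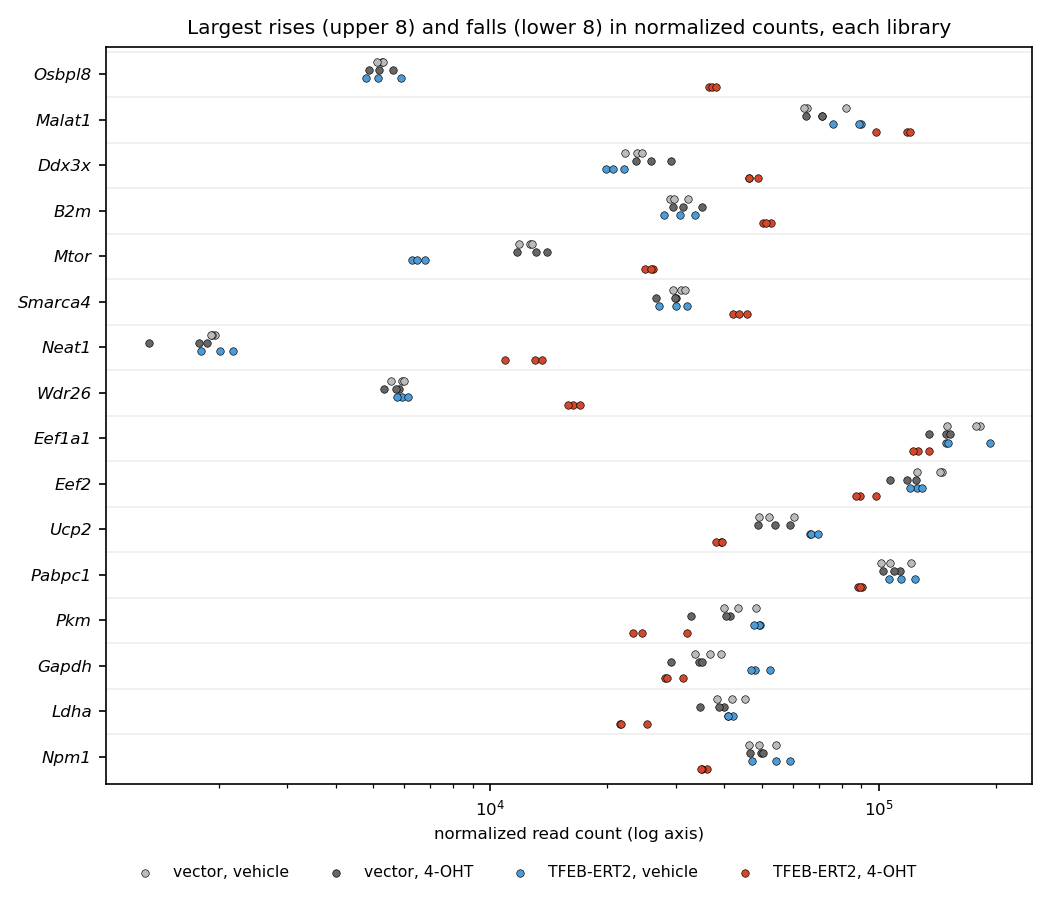
Normalized read count (log axis) in each of the 12 libraries for the 8 largest rises and 8 largest falls by difference of means. Points are libraries, coloured by group. Osbpl8, Mtor, Neat1 and Wdr26 in 4-OHT (red) stand clear of the 9 other libraries, while Eef1a1 and Pabpc1 lie close to them.

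Promoter stretches of some of these genes are shown because they hold the E-box that MiT factors are known to bind, in genes that moved in opposite directions. They come from RefSeq (GRCm38.p6), 5′ to 3′ on the gene's strand, with 40 bases on each side of the motif where the start site allows, and the motif in capitals. Osbpl8 holds TCACGTGA 102 bases before its start and Wdr26 holds CACGTG 104 bases before it. Eef2, which fell, holds TCACGTGA 44 bases before its start, and Ldha, which fell, CACGTG 48 bases before it. Trpm1 holds the related TCATGTG, known as the M-box of pigment cell promoters, 142 bases before its start. Matches outside the printed stretches were CACGTG 229 bases before another start of Trpm1 and a further CACGTG 145 bases before the start of Ldha. The starts are those of the RefSeq promoter table. The stretches of Wdr26 and Ldha, and the last bases of that of Osbpl8, lie inside the longer annotated span of the gene.
Osbpl8, chr10:111164660-111164747, + strand: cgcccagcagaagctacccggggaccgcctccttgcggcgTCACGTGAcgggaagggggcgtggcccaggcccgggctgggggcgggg
Wdr26, chr1:181212037-181212122, - strand: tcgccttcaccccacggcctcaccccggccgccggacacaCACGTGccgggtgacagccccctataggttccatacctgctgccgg
Eef2, chr10:81176547-81176630, + strand: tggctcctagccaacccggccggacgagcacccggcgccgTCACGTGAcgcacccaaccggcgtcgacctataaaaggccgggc
Ldha, chr7:46845716-46845801, + strand: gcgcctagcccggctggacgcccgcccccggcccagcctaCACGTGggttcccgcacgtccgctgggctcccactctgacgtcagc
Trpm1, chr7:64153653-64153739, + strand: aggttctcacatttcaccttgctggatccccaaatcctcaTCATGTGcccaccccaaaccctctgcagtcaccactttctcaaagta

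Windows from 250 bases before to 50 after the start were searched on both strands for CACGTG, for TCACGTGA, which contains it, and for TCATGTG. A window was found for 10274 tested genes. TCACGTGA stood in 2.18% of them, in 4.18% of 1435 genes called higher, 1.57% of 1468 called lower and 1.91% of 7371 not called. CACGTG stood in 11.5% of all, 16.4% of those higher and 10.3% of those lower. TCATGTG stood in 2.76% of all, 3.97% of those higher and 2.25% of those lower. Among the 449 genes at least 2-fold higher the shares were 2.67% for TCACGTGA, 14% for CACGTG and 6.68% for TCATGTG. Among the 383 at least 2-fold lower they were 0.261%, 8.62% and 3.13%. Of the genes switched on, 30 had a window, and 0 held TCACGTGA, 3 held CACGTG and 2 held TCATGTG, in Trpm1 and Hpgds. A match is a description of letters and not of binding. Over all 32851 promoter windows of the table, the shares were 0.974%, 7.15% and 3.77% in the order TCACGTGA, CACGTG and TCATGTG.

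Some of the strongest rises had a neighbour that rose too. Bbs10 begins 1430 bases past Osbpl8 and rose 5.41-fold from 105 ± 27.6 to 567 ± 100.4. Nyx is the next tested gene after Ddx3x on chromosome X, at 167102 bases. A neighbour here is the next tested gene with a known position on either side, whatever its distance. Other neighbours did not pass, among them Exosc10, 734 bases from Mtor, Zdhhc17 beside Osbpl8 and Cnih4 beside Wdr26 (adjusted p = 0.18, 0.376 and 0.0793, limma).

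The pathways below were read from 32 gene lists outside the lysosome, each against the shares of 13.7% higher and 13.9% lower and the median log2 change of 0.035 over all tested genes. Genes at higher levels were called more often, and no list was tested against genes of its own level. Signals to other cells came first. Of 28 secreted cytokines, chemokines and growth factors tested, 7 rose and 5 fell, with a median of 0.61. The rises were led by the genes switched on above, with progranulin, Grn, from 874 ± 143 to 4199.6 ± 78.2, and the death ligand Tnfsf10 from 456 ± 94.6 to 1063 ± 264. The alarmin Il33 fell 40.2-fold, from 5831, 5504 and 5609.6 to 184, 114 and 124, while it was at 539 to 753 in vector libraries, so vehicle cells lay above the vector line and 4-OHT cells below it. Il16 also fell, from 1723 ± 137 to 583 ± 27.9, and so did the macrophage growth factor Csf1, from 884 ± 190.1 to 389 ± 84.7.

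Of 44 cytokine and growth factor receptors, 10 rose and 7 fell (median 0.33). The chemokine receptor Ccr7, which guides lymphocytes to lymph nodes, rose 14.5-fold, from 156, 141 and 137 to 2204, 2070.4 and 2018 (log2 3.85 ± 0.19 SE, adjusted p = 1.75e-16, limma), and Cxcr4, the receptor for the marrow chemokine, rose 3.59-fold, from 797, 892 and 756 to 2808, 3067 and 2903. Both groups were tight and apart, and both changes differed between the lines, for Ccr7 by log2 4.04 (adjusted p = 7.18e-13, limma interaction). The costimulatory receptor Tnfrsf9 went from 31.5 ± 9.98 to 238 ± 27.8, the TACI receptor Tnfrsf13b from 407 ± 14.97 to 885 ± 114, and the common gamma chain Il2rg, part of the IL-7 receptor, from 927 ± 146 to 1922 ± 211. The 2 chains of the IL-10 receptor moved apart: Il10ra fell 7.802-fold from 552, 635 and 451 to 47.3, 68.4 and 94.1, and Il10rb rose from 343 ± 65.2 to 744 ± 50.4. Il27ra and Il17ra fell as well, from 143 ± 35.3 to 47.5 ± 7.34 and from 1861 ± 123 to 1117 ± 175. Tnfrsf9 missed the threshold with no variance trend and without the 3 shallowest libraries (adjusted p up to 0.107). The count of falls was 4 with no variance trend and without the 3 shallowest libraries.

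Of the signalling lists, that of NF-κB had the largest share called higher. The pathway releases Rel family factors from IκB proteins, and its targets include its own inhibitors. Of 31 members, 12 rose (38.7%) and 2 fell (6.45%), with a median of 0.10. Upstream, the paracaspase Malt1 rose 4.07-fold, from 1019.7, 1223 and 922 to 4646, 3857 and 4375 (log2 2.03 ± 0.12 SE, adjusted p = 1.63e-14, limma), and the kinase Map3k8 3.65-fold, from 139.7, 89.6 and 109 to 400.3, 382 and 453. All 5 Rel family genes were tested. Rel went from 495 ± 85.8 to 783 ± 50.5, Nfkb2 from 385 ± 62.99 to 665 ± 43.5, Rela from 1065 ± 106 to 1405 ± 156 and Nfkb1 from 1314 ± 238 to 1675 ± 44.3, while Relb did not pass (adjusted p = 0.16, limma). Of the inhibitors, Nfkbia rose from 567 ± 87.8 to 828 ± 95.1 and Nfkbie from 209.8 ± 39.04 to 407 ± 103. The deubiquitinase Tnfaip3, a feedback brake, fell from 181 ± 44.8 to 93.5 ± 27.1, and the adaptor Traf5 from 233 ± 20.2 to 122 ± 15.7. Without the 3 shallowest libraries 7 members rose and 1 fell, and 3 fell without TFEB 4-OHT library 3. Rel missed the threshold without the 3 shallowest libraries (adjusted p up to 0.0554). Rela missed the threshold without TFEB 4-OHT library 1 and without TFEB vehicle library 3 (adjusted p up to 0.0704). Nfkb1 missed the threshold in edgeR, with no variance trend, without the 3 shallowest libraries, without TFEB 4-OHT library 1, without TFEB 4-OHT library 3, without TFEB vehicle library 1 and without TFEB vehicle library 3 (adjusted p up to 0.227). Nfkbia missed the threshold with no variance trend, without the 3 shallowest libraries and without TFEB 4-OHT library 2 (adjusted p up to 0.0815). Tnfaip3 missed the threshold without the 3 shallowest libraries, without TFEB 4-OHT library 3 and without TFEB vehicle library 3 (adjusted p up to 0.117).

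Immediate early genes, which respond within minutes to growth and antigen signals, split. Of 41 tested with ERK feedback genes, 8 rose and 6 fell (median 0.14). The nuclear receptor Nr4a3 went from 29.1, 11.7 and 11.1 to 231, 234 and 305 (log2 3.94 ± 0.82 SE, adjusted p = 0.000384, limma) and the factor Ets2 rose 6.25-fold, from 374, 428 and 336 to 2497, 2380.2 and 2232. Both stood apart from vehicle in every library. Egr3 was switched on, from 6.85, 4.27 and 11.1 to 77.5, 81.3 and 97.98 (adjusted p = 0.0167, limma). This did not hold without TFEB 4-OHT library 3 (adjusted p = 0.0745), without TFEB vehicle library 2 (0.0557), with no filter (0.103) and in edgeR (0.0568), over a range from 0.00017 to 0.103. The ERK phosphatase Dusp5 rose from 159.6 ± 26.9 to 619.9 ± 84.1. Within the ERK cascade Map2k1 fell from 815 ± 29.04 to 540.5 ± 42.6 and Mapk3 from 675 ± 86.8 to 467 ± 61.6, as did the inhibitor Spred1, from 1259 ± 51.1 to 879 ± 52.5. Without the 3 shallowest libraries 5 genes rose.

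Calcium signalling genes moved in both directions. Of 52 genes of ion channels, pumps and calcium handling, 13 rose and 8 fell (median 0.01). Nfatc1, a factor that calcineurin activates when calcium rises, went from 2912, 3037 and 2672 to 9955, 9291 and 9863 (log2 1.76 ± 0.10 SE, adjusted p = 2.4e-15, limma). Rcan1, a calcineurin inhibitor and NFAT target, was at 0 in all vehicle libraries and at 48.4, 99.4 and 85.4 after 4-OHT (log2 6.24 ± 1.31 SE, adjusted p = 0.000394, limma). The ATP-gated channel P2rx4, which sits on lysosomes, rose 7.68-fold, from 126, 149 and 84.3 to 1002, 932 and 828. The calcium pump Atp2a2 rose from 5334 ± 325 to 14342 ± 815 and the proton channel Hvcn1 from 702 ± 106 to 1454 ± 78.8. The potassium channel Kcna3 fell 5.64-fold, from 208, 197 and 239 to 34.4, 40.01 and 39.8, and the calcium channel Cacna1e 8-fold, from 567, 447 and 517 to 44.1, 77.4 and 69.8. Of the IP3 receptors, which release stored calcium, Itpr2 fell from 2733 ± 189 to 1219 ± 132 and Itpr3 from 1677 ± 236 to 832 ± 46.1.

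In the PI3K pathway, which makes the lipid signal that recruits AKT, equal numbers rose and fell (11 and 11 of 41, 26.8% each, median 0.17). The adaptor Pik3ap1 (BCAP), which links B cell receptors and Toll-like receptors to PI3K, rose 8.35-fold, from 680.4, 827 and 825 to 6581, 6285 and 6612 (log2 3.07 ± 0.11 SE, adjusted p = 2.46e-19, limma). The PI3K inhibitor Pik3ip1 rose 4.84-fold, from 384, 336 and 308 to 1802, 1577 and 1597. The lipid phosphatase Inpp5d rose from 4689 ± 519 to 6921 ± 437 and the kinase Akt1 from 3059 ± 156 to 4571 ± 270.2. The phospholipase C gamma genes went opposite ways: Plcg2, the form of B cells, rose 2.55-fold, from 2431, 2429 and 2166 to 6012, 5923 and 5997, and Plcg1 fell 5.84-fold, from 176, 244 and 250.2 to 17.2, 72.3 and 25.2.

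FOXO factors, which AKT holds out of the nucleus, induce genes of quiescence. Of 29 FOXO targets and quiescence genes, 12 fell (41.4%) and 5 rose (17.2%), with a median of -0.18. Foxo1 fell from 3574 ± 509 to 2253 ± 56.95 and Foxo3 from 1276 ± 204 to 889 ± 50.5. Klf2, a factor of lymphocyte quiescence, fell 3.35-fold, from 102, 119.5 and 145 to 26.9, 30.98 and 51.4, the glucose uptake inhibitor Txnip 2.33-fold, from 4168, 5112 and 3381 to 2166, 1590.3 and 1677, and the CDK inhibitor Cdkn1b 2.35-fold, from 1404, 1565 and 1209.5 to 789.9, 474 and 514. Each of the 3 was lower in every 4-OHT library than in any vehicle library. Cited2 fell 2.49-fold, and the sestrins Sesn1 and Sesn3 fell from 2635 ± 131 to 1324 ± 192 and from 628 ± 132 to 363 ± 38.8. The receptor S1pr1, on which lymphocytes leave tissues, rose from 319.9 ± 97.8 to 700.3 ± 133, and is itself known as a target of KLF2 and FOXO1. S1pr1 missed the threshold without the 3 shallowest libraries (adjusted p up to 0.0554).

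**Figure D4:**
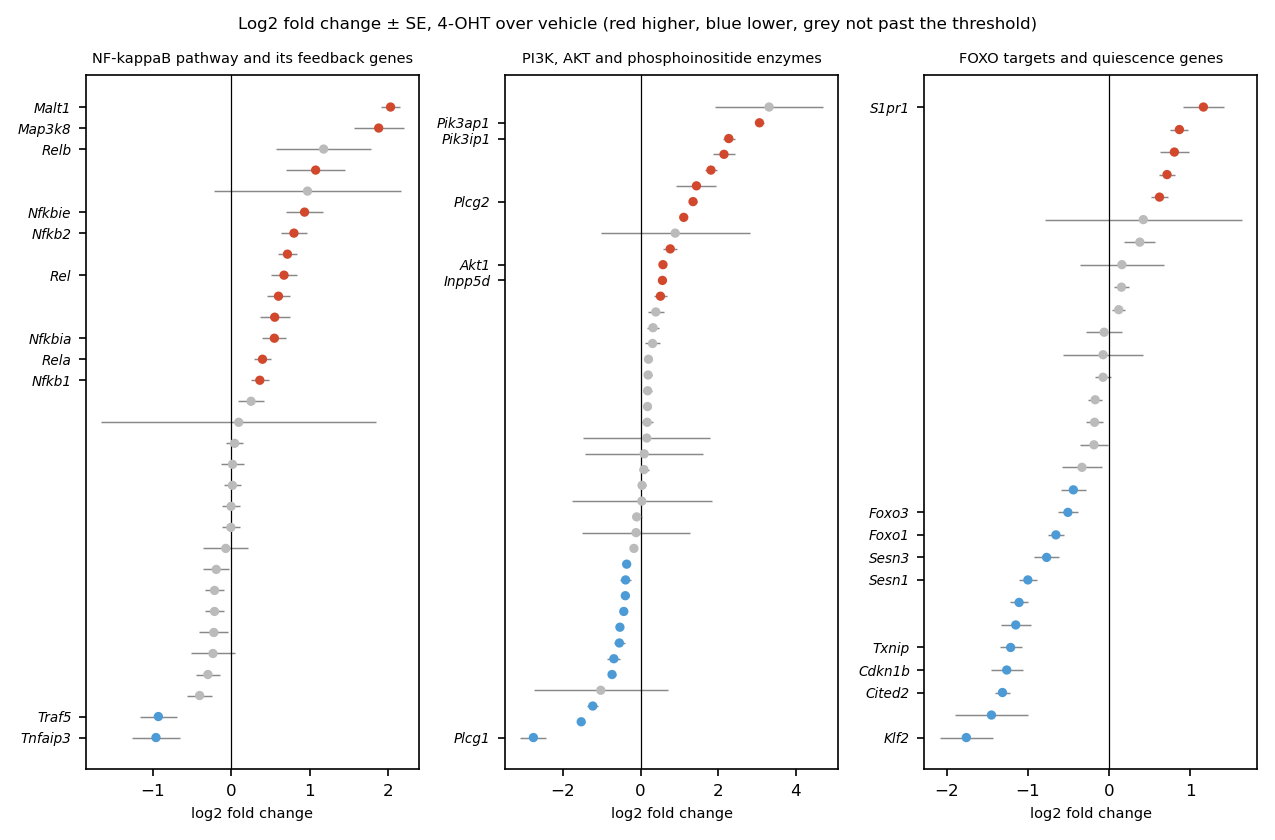
Log2 fold change of 4-OHT over vehicle with its SE for each tested member of 3 lists, sorted by change. Red members are called higher, blue lower and grey did not pass; labels mark members named in the text. NF-κB members, with Malt1 on top, and PI3K members lie on both sides of 0, with medians of 0.10 and 0.17. FOXO members have a median of -0.18, with Klf2 at the bottom.

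Innate sensing genes rose more often than they fell. Of 38 pattern recognition and complement genes, 11 rose (28.9%) and 5 fell (median 0.35). The endosomal DNA receptor Tlr9 rose 3.07-fold, from 148, 242 and 252 to 559, 702 and 710.1, its adaptor Myd88 2.39-fold, from 305, 237 and 304 to 747, 558 and 719, and the kinase Irak2 went from 38.6, 0 and 12.4 to 536, 435 and 385 (log2 5.79 ± 0.81 SE, adjusted p = 1.01e-06, limma). Unc93b1, which carries these receptors to endosomes, rose from 998 ± 153 to 1568 ± 49.8. Cd180, a B cell relative of Toll-like receptors, rose 13.3-fold, from 56.6, 102 and 58.1 to 1061, 869 and 951. The RNA sensor Ifih1 was switched on, from 8.57, 18.1 and 0 to 153, 141 and 174. On the other side, Tlr4 fell from 361 ± 23.8 to 197 ± 40.5 and Irak3, a brake on the pathway, from 863 ± 54.4 to 553 ± 62.97.

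G protein-coupled receptors showed the reverse balance, with 6 up and 11 down of 45 (median -0.05). RGS proteins end G protein signals. Rgs1 and Rgs16 were switched on, from 3.43, 0 and 15.2 to 137, 324 and 217 and from 0.857, 0 and 11.1 to 68.9, 63.2 and 72.8, and Rgs10 rose from 55.6 ± 56.6 to 212 ± 44.4, while Rgs2 fell from 380.1 ± 15.99 to 221 ± 13.5. Among receptors, the fatty acid receptor Gpr84 fell from 50.6, 58.7 and 63.6 to 0, 12.9 and 6.79, the prostaglandin receptor Ptger4 from 428 ± 15.8 to 86.8 ± 25.5 and Gpr18 from 122 ± 37.9 to 22.6 ± 10.96.

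Adhesion and matrix genes were next. Of 42 adhesion genes, 9 rose and 6 fell (median 0.27). Integrin chains moved in both directions. Itga6, a laminin receptor chain, rose 5.22-fold, from 1280.2, 1322 and 929 to 6379, 6232 and 5811 (log2 2.40 ± 0.11 SE, adjusted p = 2.03e-17, limma), Itgav rose from 1878 ± 118 to 6209 ± 42.4 and Itgb1 from 3888 ± 200.5 to 7948 ± 391, and Itga4, a chain of the VCAM1 receptor, fell from 5579 ± 233 to 2027 ± 336. Itgb3, the partner of Itgav, went from 105, 109 and 95.4 to 1158, 764 and 1023, against 0 to 34.4 in vector libraries. Its call was lost without the 3 shallowest libraries (adjusted p = 0.107, limma) and its interaction did not pass (interaction log2 2.29 ± 1.20 SE, adjusted p = 0.232, limma). Of 39 matrix and protease genes, 7 rose and 2 fell (median 0.12). The protease inhibitor Cst7 rose 12.6-fold, from 201, 223 and 379 to 3476, 3226 and 3396, urokinase, Plau, went from 1.71, 0 and 40.1 to 256, 203 and 281, and the metalloprotease Adam19 fell 7.94-fold, from 1625, 1417 and 1324 to 246, 124 and 179. The count of matrix genes that fell was 1 with no variance trend, without TFEB 4-OHT library 1, without TFEB 4-OHT library 2 and without TFEB vehicle library 1.

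Genes of actin, myosin and the GTPases that organise actin were called often in both directions, 20 up (34.5%) and 15 down (25.9%) of 58, with a median of 0.09. The kinase gene Mylk4, of the myosin light chain kinase family, went from 5.998, 0 and 41.5 to 2116, 1719 and 1633 and missed the definition of switched on through TFEB vehicle library 3. The actin crosslinker Actn1 rose 43.6-fold, from 23.1, 25.6 and 106 to 2457, 2287 and 2021 (log2 5.78 ± 0.32 SE, adjusted p = 2.39e-15, limma). It was at 416, 526 and 482 in vector vehicle libraries, so the TFEB vehicle cells lay below vector cells. Myo1e rose from 681 ± 128 to 4495 ± 259 and the exchange factors Vav1 and Vav2 from 1429 ± 153 to 2785 ± 355 and from 672 ± 106 to 1683 ± 174. Coro2a fell from 687 ± 109 to 119 ± 4.69, Evl, which elongates actin filaments, from 1359.95 ± 106 to 403 ± 10.5, and tropomyosin Tpm4 from 4462 ± 316 to 1897 ± 134. Of 28 axon guidance genes, which cells of the immune system also use, 4 rose and 4 fell (median 0.03). Plxna1 fell 7.83-fold, Epha2 5.43-fold and Slit1 4.36-fold, and Sema4d, a semaphorin of lymphocytes, rose from 2949 ± 524 to 4214 ± 79.2.

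Lipid genes came next. Of 35 sphingolipid and phospholipid genes, 8 rose and 4 fell (median 0.18). Pcyt1a, the rate-limiting enzyme of phosphatidylcholine synthesis, rose 12.4-fold, from 680.4, 715 and 659 to 9121, 8114 and 8151 (log2 3.62 ± 0.11 SE, adjusted p = 8.17e-22, limma). Sgpl1, which degrades sphingosine 1-phosphate, rose 5.34-fold, from 632, 464 and 601 to 3017, 3311 and 2731. In both the 4-OHT libraries were far above all others. The lysosomal exonuclease Pld3 rose 2.45-fold. Ugcg, which makes glucosylceramide, fell from 3298 ± 269 to 2029.6 ± 156. Of 34 lipid droplet, PPAR and LXR genes, 6 rose and 8 fell (median -0.07). Plin3, a lipid droplet coat protein, rose 6.08-fold, from 232, 214 and 219.8 to 1412, 1407 and 1235, and the cholesterol exporter Abcg1 from 1664 ± 151 to 3109.7 ± 179.7. The endocytic receptor Lrp1 fell 5.58-fold, from 781, 687 and 722 to 132, 139 and 120.3, against 54.1 to 152 in vector libraries. Agpat9, an acyltransferase of triglyceride synthesis, fell 2.79-fold. The count of falls on that list was 5 with no variance trend and without TFEB 4-OHT library 3. Of 16 prostaglandin and leukotriene genes, 3 rose and 1 fell (median 0.46), and besides Hpgds the epoxide hydrolase Ephx1 rose 3.798-fold. Without the 3 shallowest libraries 5 rose.

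Redox genes had the highest share called upward of the 32 lists. NRF2 is the factor that induces glutathione and antioxidant enzymes. Of 40 genes, 16 rose (40%) and 5 fell (12.5%), with a median of 0.14. The gene of NRF2 itself, Nfe2l2, rose 2.06-fold, from 1106, 967 and 1218 to 2108, 2412 and 2260.4 (log2 1.05 ± 0.11 SE, adjusted p = 6.39e-09, limma). The glutathione synthesis enzymes Gclc and Gclm rose from 1982 ± 150.3 to 3059.8 ± 252 and from 761 ± 58.6 to 989 ± 24.9, and the transferase Gstm1 from 27.4, 35.2 and 56.7 to 465, 324 and 260.0. Subunits of the phagocyte NADPH oxidase rose alongside, with Cyba from 1127, 1289 and 1283 to 3510.3, 4088 and 4036 and Ncf4 from 317 ± 50.99 to 464 ± 53.6. Glutathione reductase, Gsr, fell from 238 ± 21.02 to 119 ± 10.8. Without the 3 shallowest libraries 11 rose and 2 fell, and 2 fell without TFEB 4-OHT library 3. Gclm missed the threshold without TFEB 4-OHT library 1 and without TFEB vehicle library 3 (adjusted p up to 0.0609). Ncf4 missed the threshold with array weights, without the 3 shallowest libraries, without TFEB 4-OHT library 1, without TFEB vehicle library 2 and without TFEB vehicle library 3 (adjusted p up to 0.133). Gsr missed the threshold without TFEB 4-OHT library 3 (adjusted p up to 0.0504).

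Trafficking and transport lists were nearer to the background. Of 65 Rab, SNARE and endosome genes, 14 rose and 9 fell (median 0.09), among them Rab30 of the Golgi, up 5.21-fold, Rab7 of late endosomes, from 1294 ± 166 to 2131 ± 243, the SNARE Vamp8, from 268 ± 55.8 to 852 ± 40.6, and, falling, Rab27a and Rab3d of secretory granules, from 1448 ± 290.3 to 802 ± 42.3 and from 464 ± 44.5 to 170.2 ± 20.8. Of 42 transporters of sugars, lactate, nucleosides and vitamins, 8 rose and 8 fell (median 0.21). The glucose transporter Slc2a1 fell from 1962 ± 241 to 1016 ± 232 and the lactate exporter Slc16a3 from 2419 ± 248 to 1274 ± 290.3, whereas the nucleoside transporter Slc29a1 rose from 2008 ± 213 to 4166 ± 64.98. Of 30 metal ion genes, 5 rose and 5 fell (median 0.19). The copper importer Slc31a1 fell 2.64-fold and the metalloreductase Steap3 2.46-fold, and the zinc importer Slc39a6 rose from 3336 ± 89.3 to 6516 ± 491. The number of rises on these lists changed with single libraries. For the first transporter list the count of rises was 4 without the 3 shallowest libraries, and 5 without TFEB 4-OHT library 1, without TFEB 4-OHT library 2, without TFEB 4-OHT library 3 and without TFEB vehicle library 3. For metal ions it was 3 with TMM scaling, with no variance trend, over the 6 libraries alone, without the 3 shallowest libraries, without TFEB 4-OHT library 1 and without TFEB vehicle library 1, and 2 in edgeR, without TFEB 4-OHT library 2, without TFEB 4-OHT library 3 and without TFEB vehicle library 2.

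Glycosyltransferases tended the other way, with 13 down (24.5%) and 6 up of 53 (median -0.20). Galnt10, which starts mucin-type chains, fell 3.47-fold, from 881, 804 and 897 to 243, 262 and 238, and the chondroitin sulfotransferase Chst15 3.62-fold. The branching enzymes of N-glycans moved apart, with Mgat5 up from 848 ± 80.5 to 2447 ± 249 and Mgat4a down from 1479 ± 15.8 to 466 ± 51.9. The count of rises was 3 with no variance trend and without TFEB 4-OHT library 1, and 2 without the 3 shallowest libraries.

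Chromatin genes fell more often than they rose. Of 66 modifiers and remodellers, 21 fell (31.8%) and 10 rose (15.2%), with a median of -0.07. The deacetylase Hdac7, known as a regulator of early B cell identity, fell 3.53-fold, from 5208, 5199 and 4719 to 1566, 1226 and 1496 (log2 -1.82 ± 0.09 SE, adjusted p = 1.75e-16, limma). A second deacetylase, Hdac11, fell 2.23-fold. Maintenance methylation genes Dnmt1 and Uhrf1 fell from 6269 ± 356 to 5141 ± 206 and from 9515 ± 511 to 6499 ± 119, of which Dnmt1 missed the threshold without TFEB 4-OHT library 2 (adjusted p up to 0.0528). The acetyltransferases Ep300 and Crebbp rose from 4273 ± 271 to 5285 ± 141 and from 9325 ± 498 to 11446 ± 148. The count of chromatin genes that rose was 6 with no variance trend and without the 3 shallowest libraries. Of 42 spliceosome genes, 7 rose and 3 fell, with a median of 0.01, and the largest called rise was that of Prpf3, 1.6-fold, ahead of Prpf31 at 1.31-fold. The difference from vector cells did not pass for Prpf3 or Prpf31 (interaction adjusted p = 0.062 and 0.564, limma). The count of spliceosome genes that rose was 4 with TMM scaling, without the 3 shallowest libraries, without TFEB 4-OHT library 1 and without TFEB 4-OHT library 3, and 3 in edgeR and with no variance trend. The count that fell was 1 with no variance trend and without TFEB vehicle library 2, and 6 without TFEB vehicle library 1. Of 19 clock genes, 5 rose and 2 fell (median 0.11). The activator Arntl rose from 749.9 ± 25.5 to 1324 ± 78.5 and the clock kinase Csnk1e from 177 ± 73.8 to 355 ± 19.3, and Nr1d1, a repressor of Arntl, fell 2.02-fold, from 783, 671 and 832 to 349.7, 439 and 345. The count of clock genes that rose was 2 with no variance trend and without the 3 shallowest libraries.

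B lineage genes had the highest share called lower of the 32 lists. Of 17 members, 11 fell (64.7%) and 3 rose, and the median was -0.97. The factors Ebf1 and Pax5 fell from 6621 ± 376 to 2306 ± 82.6 and from 5014 ± 666 to 2119.9 ± 309.6. The surrogate light chain genes Igll1 and Vpreb1 fell from 10129 ± 269 to 3543 ± 34.1 and from 7450.3 ± 1150.3 to 2554 ± 253, and Vpreb3 fell 6.36-fold. Of the recombinase genes, Rag1 fell 13.4-fold and Rag2 went from 262, 201 and 129 to 10.8, 38.7 and 5.82. The signalling chain Cd79a and the linker Blnk rose, from 7546 ± 769 to 8859 ± 378 and from 4933 ± 111 to 7074 ± 263, while Cd79b, the partner of Cd79a, fell from 3319 ± 562 to 1673 ± 73.97. Cd79a missed the threshold with TMM scaling, with array weights, in edgeR, with no filter, with no variance trend, without the 3 shallowest libraries, without TFEB 4-OHT library 1, without TFEB 4-OHT library 3, without TFEB vehicle library 2 and without TFEB vehicle library 3 (adjusted p up to 0.198).

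Transcription factors of other blood lineages went both ways, 9 up and 12 down of 46 (median -0.07). Tcf7, a Wnt pathway factor of T cells, went from 17.1, 25.6 and 9.68 to 1430.2, 1367 and 1131 (log2 6.24 ± 0.53 SE, adjusted p = 5.82e-11, limma), while its relative Lef1, which early B cells express, fell from 8654 ± 39.4 to 5424 ± 399. Lmo2, a cofactor of blood stem cells, rose 12.8-fold, from 72.8, 83.2 and 141 to 1304, 1219.8 and 1288. Tcf7 and Lmo2 were low in every library but the 3 in 4-OHT. Erg fell 6.72-fold, from 4087, 3604 and 3893 to 568, 573 and 583, and Mef2c 3.59-fold, from 2594, 3152 and 2812 to 621, 920.3 and 841, whereas Myb rose 1.801-fold, from 8336, 8831 and 7774 to 15072, 14594 and 15247. Gfi1 rose from 249 ± 26.2 to 1109 ± 91.3.

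Germinal centre and plasma cell genes were called in both directions, 8 up (33.3%) and 5 down (20.8%) of 24, with a median of 0.10. Besides Fam46c, the secretory factor Xbp1 rose 2.89-fold, from 4036, 3341 and 3811 to 10636, 11058 and 10686 (log2 1.54 ± 0.09 SE, adjusted p = 1.29e-14, limma), the coactivator Pou2af1 from 8366 ± 342 to 11272 ± 379, and Edem1, which clears misfolded glycoproteins, from 3110.03 ± 216 to 7409 ± 231. Against these, the plasma cell surface genes Slamf7 and Cd38 fell from 8208 ± 743 to 3605 ± 185 and from 77.8 ± 19.5 to 27.4 ± 11.5. The count of falls was 3 without TFEB 4-OHT library 1.

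**Figure D5:**
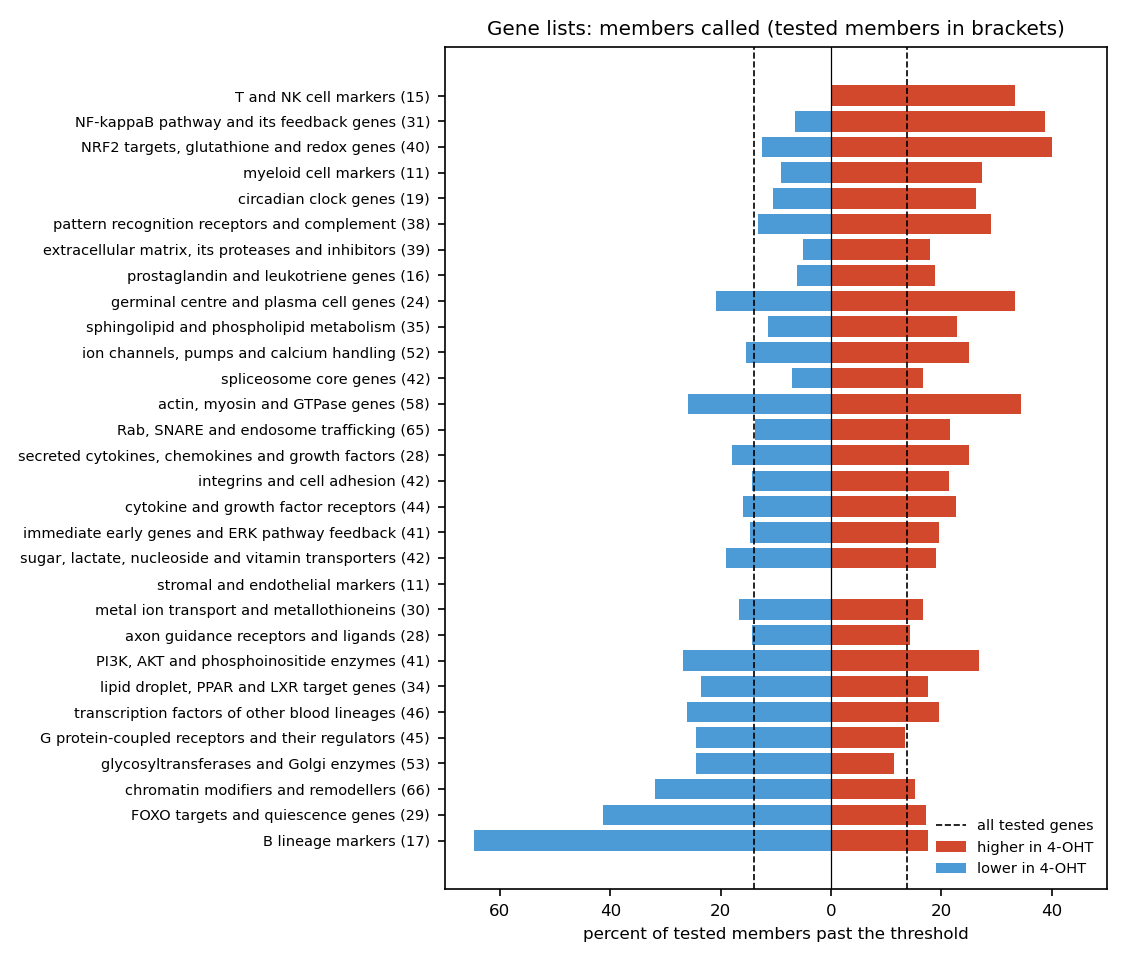
Percent of tested members called higher (red, right) or lower (blue, left) in 30 gene lists, sorted by the difference, with the number tested in brackets. Dashed lines mark the shares over all tested genes, 13.7% higher and 13.9% lower. The NRF2 and NF-κB lists have the longest bars to the right, and the B lineage and FOXO lists the longest to the left.

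Some of the largest changes within the lists had low counts or rested on single libraries. The interleukin-1 receptor Il1r1 went from 12, 0 and 26.3 to 64.6, 136 and 109, but that call was lost in DESeq2, in edgeR, with no filter, with no variance trend, without TFEB 4-OHT library 2, without TFEB 4-OHT library 3 and without TFEB vehicle library 2 (adjusted p up to 0.163). The interferon factor Irf7 went from 0, 23.5 and 13.8 to 79.6, 70.99 and 151, but that call was lost in edgeR, with no filter, with no variance trend, without TFEB 4-OHT library 1, without TFEB 4-OHT library 3 and without TFEB vehicle library 1 (adjusted p up to 0.181). The vitamin C transporter Slc23a2 went from 7.71, 1.07 and 40.1 to 152, 130.4 and 95.1, and that call was lost with no variance trend (adjusted p up to 0.0515). In these 3 genes the vehicle libraries were low and the 4-OHT libraries all above them.

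The cadherin Cdh17 went from 27.6 ± 15.2 to 133 ± 40.04, and that call was lost without the 3 shallowest libraries (adjusted p up to 0.0638). The clock factor Bhlhe40 went from 412 ± 34.03 to 1348 ± 90.5, and that call was lost with no variance trend and without the 3 shallowest libraries (adjusted p up to 0.162). The kinase Ikbke went from 75.5 ± 8.97 to 159.5 ± 8.95, but that call was lost with no filter, without the 3 shallowest libraries, without TFEB 4-OHT library 1, without TFEB 4-OHT library 2, without TFEB 4-OHT library 3 and without TFEB vehicle library 1 (adjusted p up to 0.106). The oxidase subunit Ncf1 went from 63.5 ± 30.3 to 179 ± 55.4, but that call was lost with no filter, with no variance trend, without the 3 shallowest libraries, without TFEB 4-OHT library 3 and without TFEB vehicle library 1 (adjusted p up to 0.13). The GTPase Rac3 went from 9.05 ± 8.05 to 50.8 ± 19.5, but that call was lost in edgeR, with no filter, with no variance trend, without the 3 shallowest libraries, without TFEB 4-OHT library 1 and without TFEB vehicle library 3 (adjusted p up to 0.125). The phospholipase Pla2g6 went from 430.1 ± 148 to 655 ± 25.9, but that call was lost with no variance trend, without the 3 shallowest libraries and without TFEB vehicle library 3 (adjusted p up to 0.354). The zinc transporter Slc39a13 went from 42.7 ± 16.9 to 102 ± 30.4, but that call was lost in edgeR, with no filter, with no variance trend, over the 6 libraries alone, with a pseudocount of 0.5, with a replicate block, without the 3 shallowest libraries, without TFEB 4-OHT library 1, without TFEB 4-OHT library 2, without TFEB 4-OHT library 3, without TFEB vehicle library 1, without TFEB vehicle library 2 and without vector vehicle library 1 (adjusted p up to 0.195).

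Among falls, Tsc22d3, a glucocorticoid and FOXO target, went from 151 ± 48.5 to 55.2 ± 20.3, but that call was lost with no variance trend, without the 3 shallowest libraries, without TFEB 4-OHT library 3 and without TFEB vehicle library 2 (adjusted p up to 0.133). The bicarbonate transporter Slc4a8 went from 54.8 ± 16.6 to 20.7 ± 20.3, but that call was lost with no variance trend, over the 6 libraries alone, without TFEB 4-OHT library 1 and without TFEB vehicle library 1 (adjusted p up to 0.101). The Polycomb protein Cbx8 went from 137 ± 38.8 to 61.4 ± 33.7, but that call was lost without the 3 shallowest libraries, without TFEB 4-OHT library 1 and without TFEB vehicle library 2 (adjusted p up to 0.0632). The splicing factor Snrpd3 went from 5629.9 ± 915 to 4259.7 ± 350.1, but that call was lost with array weights, with no variance trend and without the 3 shallowest libraries (adjusted p up to 0.27).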

How the data were processed

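RNA-seq of 12 libraries in 4 groups of 3 was used, with groups and replicate numbers from the sample titles. Per the protocols in the labels, total RNA was the input and the kit was NuGEN's Ovation for mouse. The deposited table holds 1 normalized value per gene and library (unit: signal), gene read counts that the authors divided by a size factor for each library. The tools in the submitters' processing notes are DESeq2 1.6.3, HTSeq 0.6.1 and STAR 2.5.3, with the mm10 build. The sources used here do not give what each did, the annotation or the strand setting. Within a tolerance of 0.001, 100% of values were whole multiples of the value of 1 read, which gave each library's reads. All 12 columns were used.

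Values were fitted as log2(value + 1) with limma 3.58.1 in R 4.3.3, with 1 mean per group, a variance trend and 8 residual degrees of freedom. Only genes at 10 or more in at least 3 libraries were fitted, and p-values were adjusted by Benjamini-Hochberg over 13111 genes. The interaction is the 4-OHT effect in TFEB-ERT2 cells minus that in vector cells. The script was checked on simulated data. A fold at least as large as stated sets the mean against 3 reads in the library where these are worth most. Floors cover counting error only. Alternatives were edgeR 4.0.16 and DESeq2 1.42.0 on the recovered reads, other scalings, filters and pseudocounts, array weights, no variance trend, the 6 libraries alone, a replicate block, and each library left out. Leaving out the 3 shallowest libraries together was chosen after seeing the data.

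The genes and the 32 lists (1422 entries, 1415 found, 1089 tested) were chosen with earlier results of these data known. Named genes were Tfeb, the 14 genes with the highest mean among those switched on and among those switched off without predicted genes, and the 8 largest rises and falls. Up to 3 list members with the largest log2 change and a mean of at least 50 in the higher group were added from each list, or the member with the smallest p where none passed. All other genes named were chosen after their values were seen. Some genes are not reported here. Of 336 called list members outside that rule, 213 stayed past the threshold in every alternative and 0 reversed. Gene positions and promoter windows are from RefSeq (GRCm38.p6, the mm10 assembly).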

Additional observations from a re-analysis of the deposited data

Results flagged for a closer look

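For 110 of the 139 named genes the effect of 4-OHT differed between TFEB-ERT2 and vector cells (limma, interaction, Benjamini-Hochberg adjusted p under 0.05), against 15.8% of all 13111 genes tested. Most of the 139 were chosen for a large effect in TFEB-ERT2 cells, so the count is read as a description. Each number here is that difference on the log2 scale, TFEB-ERT2 minus vector, from 3 libraries a group. No cause was tested. It was -1.19 for Tfeb.

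Among genes switched on, the differences were 10.81 for Fam46c, 10.72 for Ccl3, 7.13 for Ccl4, 9.84 for Angptl2 and 5.31 for Spp1. For receptors they were 7.47 for Lilrb4, 9.69 for Gp49a, 5.29 for Cd28, 3.87 for Tyro3, 6.05 for Pdcd1 and 5.63 for Pdcd1lg2. For the channel, enzymes and other proteins they were 7.18 for Trpm1, 6.96 for Hpgds, 6.65 for Plk2, 5.19 for Kynu, 3.31 for Sgsh, 3.80 for Ifih1 and 4.56 for Rgs16. Among genes switched off they were -5.12 for Heyl, -4.16 for Blk, -4.35 for B3gnt8, -3.84 for Tmem255a and -3.83 for Umod.

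Of the largest shifts in normalized read count, the rises differed by 2.83 for Osbpl8, 1.93 for Mtor, 2.88 for Neat1, 1.52 for Wdr26, 1.02 for Ddx3x, 0.67 for B2m and 0.65 for Smarca4, and the falls by -0.80 for Ucp2, -0.68 for Pkm, -0.59 for Gapdh, -0.71 for Ldha and -0.56 for Npm1. Genes beside these or related to them differed by 2.44 for Bbs10, 4.52 for Nyx, 5.67 for Tph1 and 4.86 for Slc26a11.

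Receptors and secreted proteins differed by 4.04 for Ccr7, 1.78 for Cxcr4, -2.78 for Il10ra and -5.22 for Il33. Signalling genes of the immediate early, NF-κB, PI3K and FOXO lists differed by 5.12 for Nr4a3, 2.81 for Ets2, 1.96 for Malt1, 2.10 for Map3k8, 3.21 for Pik3ap1, 2.60 for Pik3ip1, -2.37 for Plcg1 and 1.27 for Plcg2 and by -1.81 for Klf2, -1.19 for Cited2, -1.16 for Cdkn1b and -0.82 for Txnip. Calcium, channel and G protein genes differed by 2.01 for Nfatc1, 5.44 for Rcan1, 3.48 for P2rx4, -2.23 for Cacna1e, -2.49 for Kcna3 and -3.54 for Gpr84. Innate sensing genes differed by 5.29 for Irak2, 3.25 for Cd180 and 1.21 for Myd88.

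Adhesion, matrix, guidance and actin genes differed by 2.66 for Itga6, 6.75 for Plau, 4.03 for Adamts14, 4.32 for Cst7, -3.13 for Adam19, -2.74 for Epha2, -2.004 for Slit1, 7.92 for Mylk4 and 6.38 for Actn1. Lipid genes differed by 2.48 for Ephx1, 3.22 for Plin3, -2.88 for Lrp1, -1.16 for Agpat9, 4.04 for Pcyt1a, 2.21 for Sgpl1 and 1.41 for Pld3. Redox genes differed by 3.14 for Gstm1, 1.64 for Cyba and 1.03 for Nfe2l2. Clock genes differed by 2.57 for Bhlhe40, 1.29 for Csnk1e and -0.82 for Nr1d1. Metal, trafficking and Golgi genes differed by -1.01 for Slc31a1, -1.14 for Steap3, 2.29 for Rab30, 1.94 for Vamp8, -1.46 for Rab3d, -1.57 for Chst15 and -1.52 for Galnt10.

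Chromatin and splicing genes differed by -1.83 for Hdac7, -0.97 for Hdac11 and -0.51 for Snrpd3. Lineage factors and plasma cell genes differed by 7.03 for Tcf7, 3.56 for Lmo2, -2.24 for Erg, -2.06 for Mef2c, 0.81 for Myb and 1.66 for Xbp1. Markers of myeloid, T and NK cells differed by 5.80 for Fcer1g, -2.27 for Mrc1, 3.00 for Prf1 and 1.24 for Lat, and B lineage markers by -3.11 for Rag1, -3.16 for Rag2 and -2.68 for Vpreb3.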

How the results depend on the processing

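Leaving out the 3 shallowest libraries, chosen after seeing the data, gave 65 genes switched on, 12 switched off and 1324 that differed between lines, with fewer samples in the fit. The limits of the definition set the number switched, with 9 on and 2 off for under 10 against at least 100, and 103 on and 43 off for under 40 against at least 40. Leaving out 1 library gave 2975 to 3734 called genes, 1420 to 1860 higher, 1555 to 1874 lower, 485 to 602 at least 2-fold higher, 437 to 496 at least 2-fold lower, 42 to 60 switched on, 7 to 13 switched off and 1773 to 2108 that differed between lines. edgeR called 3400 genes (1478 higher, 1922 lower), TMM scaling 3513 (1574 and 1939), and DESeq2 4146. Replicate numbers gave no sign of pairing, with correlations of deviations from -0.115 to 0.165 over 18 same-numbered pairs. Over differently numbered pairs they ran from -0.232 to 0.19. With 3 libraries a group such a check cannot exclude pairing. The fit with a replicate block called 3601 genes, 1780 higher and 1821 lower, with 547 and 491 at least 2-fold, 42 switched on, 7 switched off and 2094 that differed between lines. Over 139 named genes and 25 alternatives, 117 genes kept their side of the threshold throughout. Of 3469 values, 95 lost their call, 1 gained one (Pecam1 with array weights, log2 -0.30) and 0 reversed. Depth limits genes near the floor of 2.57 to 4.15 normalized counts.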
